A study of Mus musculus with 12 samples.

Results

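The 9 genes described here were Diaph3, Plxdc2, Cntn1, Ccdc136, Lrp1b, Dst, Nf1, Vps13d and Lix1, out of 37620 gene identifiers counted in mouse neural stem cells. All lie on autosomes. They were chosen by name, because their change after loss of the transcription factor E47 appeared to depart from their change after loss of the related factor E12. The values that chose them were therefore the knockout effects themselves. These are given below as a description that supports nothing. A p-value is printed for the 9 genes only in the comparison between the mouse lines. The choice did not use that comparison, which does hold the same libraries. For 7 of the 9 genes the E47 and E12 effects lay apart, as the choice requires, and neither edgeR nor DESeq2 called any of them for the difference. The other 2 did not have that pattern: Cntn1 was lower in both knockouts and Ccdc136 was higher in both, by nearly equal amounts.

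The cells were neural stem cells of C57BL/6J embryos at E14.5 (midgestation), kept dividing with FGF-2 and EGF at 20 ng per ml each. The 4 groups were E12 knockout cells (E12KO, genotype E12-/-), wild-type cells from litter mates of that line (E12wt, E12+/+), E47 knockout cells (E47KO, E47-/-) and wild-type cells from litter mates of that line (E47wt, E47+/+), with 3 libraries in each. The labels do not say how the alleles were made, nor whether each library stands for its own embryo or culture. Any p-value therefore measures the spread between these libraries, which may be technical. In E47wt, sex-linked transcripts given below differed between replicate 2 and the other libraries, so these did not all come from 1 embryo.

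The gene Tcf3 gives rise to both factors by use of alternative exons. They belong to the E proteins, a class of basic helix-loop-helix factors. As homodimers, or as dimers with tissue-specific partners such as the proneural factors, they bind E-boxes, short DNA motifs with the letters CANNTG, and Id proteins hold them away from DNA. In the developing cortex E proteins act with the proneural factors while progenitors leave the cell cycle and become neurons. The 9 genes share no pathway. They encode a builder and a linker of the cytoskeleton (Diaph3, Dst), cell surface proteins (Plxdc2, Lrp1b, Cntn1), a brake on Ras (Nf1), a lipid transfer protein (Vps13d), a coiled-coil protein (Ccdc136) and Lix1, which is named for its expression in the limb bud.

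The stretch before the transcription start is shown for 4 of the genes, because an E-box is the sequence that E proteins read. RefSeq promoters on build GRCm38.p6 were found for 7 of the 9 genes, in 14 windows of 250 bases ending just before an annotated start. Plxdc2 and Lrp1b had none in the table used. The capitals mark CANNTG. The Diaph3 window is chr14:87141225-87141474 on the minus strand and the Lix1 window chr17:17402436-17402685 on the plus strand. Dst and Ccdc136 had several windows, and the most upstream of each is shown. These are chr1:34011345-34011594 for Dst and chr6:29396325-29396574 for Ccdc136, both on the plus strand.
Diaph3: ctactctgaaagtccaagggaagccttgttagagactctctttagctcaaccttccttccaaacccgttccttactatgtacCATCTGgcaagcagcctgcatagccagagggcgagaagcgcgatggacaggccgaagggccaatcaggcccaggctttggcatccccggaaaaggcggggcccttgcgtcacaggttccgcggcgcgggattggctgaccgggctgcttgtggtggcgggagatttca
Lix1: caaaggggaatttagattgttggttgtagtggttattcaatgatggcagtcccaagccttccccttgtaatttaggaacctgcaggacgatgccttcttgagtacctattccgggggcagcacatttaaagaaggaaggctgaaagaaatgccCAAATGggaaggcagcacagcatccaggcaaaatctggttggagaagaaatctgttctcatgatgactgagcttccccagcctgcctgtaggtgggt
Dst: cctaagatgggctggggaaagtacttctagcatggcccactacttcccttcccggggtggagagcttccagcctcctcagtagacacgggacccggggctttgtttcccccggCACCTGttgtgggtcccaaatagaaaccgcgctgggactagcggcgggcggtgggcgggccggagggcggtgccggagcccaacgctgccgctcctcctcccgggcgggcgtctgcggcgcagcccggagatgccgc
Ccdc136: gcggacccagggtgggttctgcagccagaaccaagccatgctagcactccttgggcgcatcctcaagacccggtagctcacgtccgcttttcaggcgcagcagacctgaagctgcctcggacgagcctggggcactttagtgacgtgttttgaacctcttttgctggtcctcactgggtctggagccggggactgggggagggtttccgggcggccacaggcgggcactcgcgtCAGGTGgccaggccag

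The match began 168 bases before the start in Diaph3 and 97 bases before it in Lix1. In Dst the match was CACCTG, which is CAGGTG on the other strand, 137 bases before the start, and in Ccdc136 it was CAGGTG, 16 bases before the start. CANNTG, which matches both strands at once, occurred in 10 of the 14 windows and in 5 of the 7 genes, with no match in Cntn1 or Nf1. Among all 32851 mouse promoter windows of this length, 66.2% held it. CAGGTG, on either strand and counted also among the CANNTG matches, occurred in 5 windows of 3 genes (Ccdc136, Dst and Vps13d), and 3 of those 5 were overlapping windows of Ccdc136. The share in all windows was 17.2%. CAGCTG occurred in 1 window, a downstream promoter of Ccdc136, against 13.0% of all windows. These are matches of letters, and binding was not measured.

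Counts are given as counts per 1e6 gene reads (CPM) after scaling for library composition. Libraries held about 34515300 to 56835800 gene reads, and 3 reads corresponded to 0.0528 to 0.0869 CPM. All 9 genes passed the filter on low counts in every fit. Their lowest values were those of Lrp1b and Lix1, with 72 to 194 reads per library. E47KO replicate 2 stood apart from the other libraries on the first principal component, which held 31.2% of the variance. All 6 E12 libraries, and E47wt replicates 1 and 3, had Xist at 885 to 1510 CPM, whereas E47wt replicate 2 and the 3 E47KO libraries had Xist at 0.252 to 0.835 CPM and Y-linked transcripts summing to 200 to 245 CPM. By these transcripts, sex differed between E47KO and most of E47wt, the only group with both sexes. A term for sex in a fit therefore rests on E47wt replicate 2, the only male wild-type library. It leaves that library as the only wild type set against E47KO. Neural stem cell markers were high in all libraries, where Fabp7, a radial glial lipid-binding protein, averaged 2830 CPM and Sox2, a stem cell transcription factor, 239 CPM. Counts of the whole Tcf3 gene cannot separate the E12 and E47 splice forms, so they do not check the knockouts. Tcf3 ranged from 72.9 to 101 CPM in E12KO, from 75.8 to 82.2 CPM in E12wt, from 108 to 118 CPM in E47KO and from 75.4 to 97.2 CPM in E47wt.

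Diaph3 encodes a formin, a protein that nucleates and lengthens unbranched actin filaments. Its values were 30.1, 31.4 and 36.2 CPM in the 3 E47KO libraries and 45.8, 51.8 and 53.8 CPM in E47wt. In the E12 line they were 45.2, 59.7 and 52.2 CPM in E12KO and 49.1, 48.3 and 48.6 CPM in E12wt. All 3 E47KO libraries lay below each of the other 9, while E12KO lay on both sides of E12wt. After E47 loss the log2 fold change was -0.65 ± 0.13 (standard error, SE, n = 3 against 3), or 0.638 times wild type. After E12 loss it was 0.11 ± 0.10, and leaving out 1 library moved that value between 0.00 and 0.20. In bulk RNA, fewer cells expressing a gene and less RNA per cell cannot be told apart, here and for every gene below.

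Plxdc2 encodes a transmembrane protein with a plexin-like domain. Its level was 10.5, 10.3 and 10.9 CPM in E47KO against 17.6, 17.7 and 15.4 CPM in E47wt. E12KO had 12.4, 15.3 and 16.6 CPM and E12wt 14.4, 14.3 and 13.6 CPM. As for Diaph3, the E47KO libraries were below all others and the E12 groups overlapped. The wild types also differed, since all 3 E47wt values were above all 3 E12wt values. The log2 fold change was -0.69 ± 0.14 after E47 loss (0.618 times) and 0.07 ± 0.12 after E12 loss, where leaving out 1 library gave -0.02 to 0.18.

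Lrp1b encodes a very large endocytic receptor of the lipoprotein receptor family. Its level was 2.23, 2.00 and 1.87 CPM in E47KO and 4.11, 3.00 and 3.69 CPM in E47wt. The E12KO libraries gave 3.75, 3.00 and 3.09 CPM. The E12wt libraries gave 2.75, 2.91 and 2.80 CPM. The E47KO values were the lowest of all 12, and in the E12 line the knockout lay above the wild type in each library, by a narrow margin. Log2 fold changes were -0.84 ± 0.22 after E47 loss (0.56 times) and 0.22 ± 0.16 after E12 loss. The latter was 0.11 without E12KO replicate 1 and 0.28 without E12KO replicate 2. With sex as a term in the fit, the E47 value was -0.58 ± 0.32. That value sets E47KO against E47wt replicate 2 alone, the only male wild-type library.

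Lix1 was the one gene of the 9 that was higher after E47 loss and not after E12 loss. It stood at 3.93, 3.99 and 3.50 CPM in E47KO, 2.15, 2.16 and 1.85 CPM in E47wt, 2.06, 2.05 and 2.35 CPM in E12KO and 1.95, 3.05 and 2.45 CPM in E12wt. Every E47KO library was above each of the other 9. The log2 fold change was 0.87 ± 0.20 after E47 loss (1.83 times) and -0.20 ± 0.20 after E12 loss, and the latter was -0.36 without E12wt replicate 1 and -0.03 without E12wt replicate 2. Its close paralogue Lix1l was far more abundant, at 144 CPM, and had log2 fold changes of 0.00 ± 0.14 after E47 loss and -0.07 ± 0.06 after E12 loss.

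**Figure D1:**
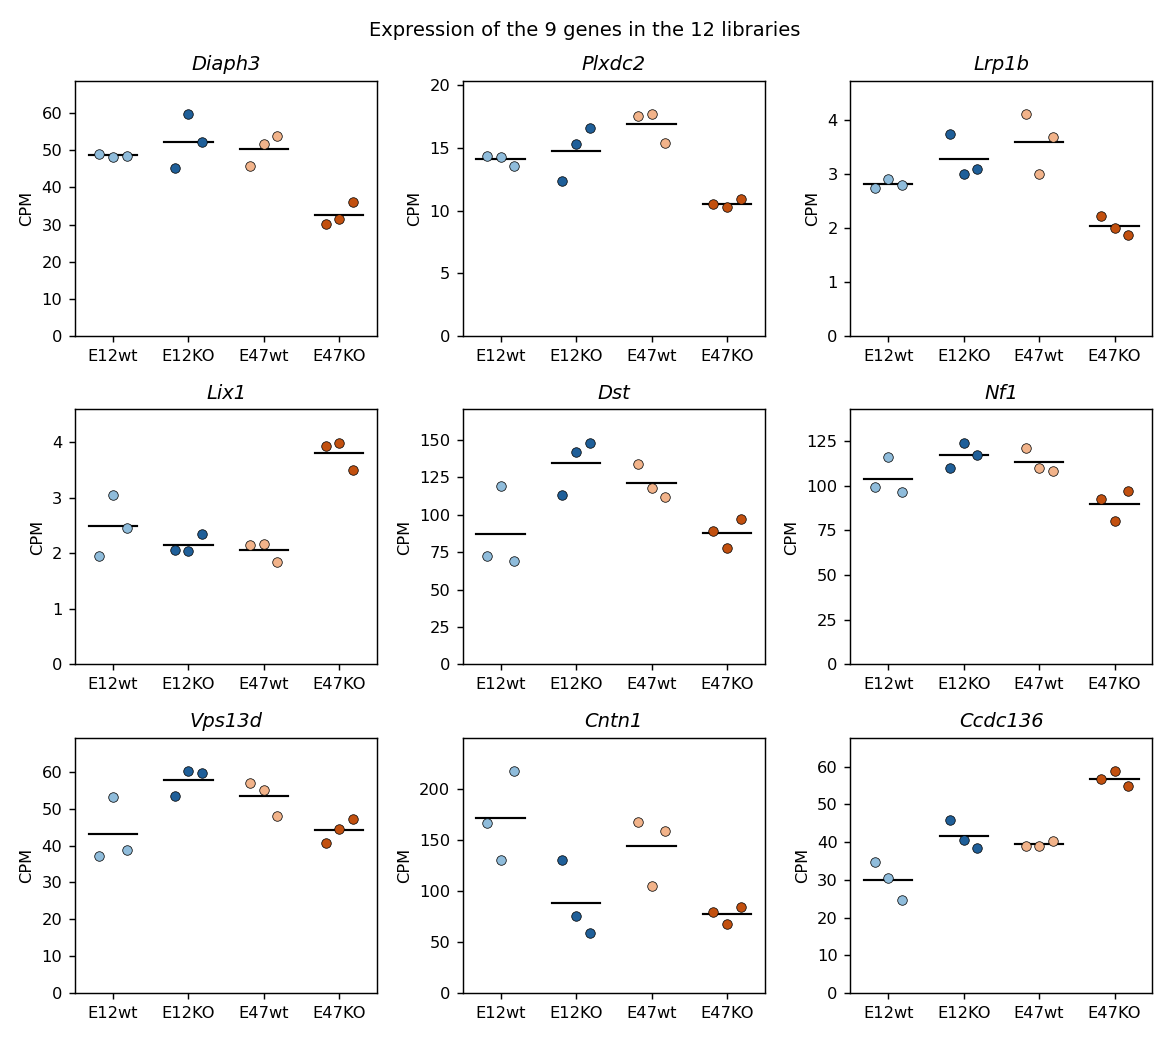
Expression of each gene in every library, in counts per 1e6 reads (CPM) on the vertical axis, with the 4 groups along the horizontal axis. Points are single libraries and black lines are the means of 3. The E47KO points lie outside all others for Diaph3, Plxdc2 and Lrp1b (lower) and for Lix1 and Ccdc136 (higher), whereas Cntn1 is low in both knockouts.

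Dst encodes dystonin, a giant plakin that links actin, microtubules and intermediate filaments. It was read at 89.3, 77.8 and 97.0 CPM in E47KO and 134, 118 and 112 CPM in E47wt, which did not overlap. In the E12 line the order was turned, with 113, 142 and 148 CPM in E12KO and 72.2, 119 and 69.2 CPM in E12wt. E12wt replicate 2 lay within the E12KO range and the other E12wt libraries lay far below it. The log2 fold change was -0.48 ± 0.12 after E47 loss (0.718 times) and 0.63 ± 0.20 after E12 loss (1.55 times), which became 0.93 without E12wt replicate 2 and 0.48 without E12wt replicate 3. The E47KO mean of 88.0 ± 9.65 CPM (SD, n = 3) was therefore close to the E12wt mean of 86.8 ± 27.9 CPM (SD, n = 3). The low E47KO value was not low against the wild types of the other line.

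Vps13d encodes a bridge-like protein that carries lipids between organelles and is needed for normal mitochondria. It had 40.8, 44.6 and 47.3 CPM in E47KO and 57.1, 55.0 and 48.0 CPM in E47wt. E12KO had 53.4, 60.2 and 59.7 CPM and E12wt 37.2, 53.2 and 38.9 CPM. The groups of each line did not overlap, but the nearest libraries differed by less than 1 CPM in both lines, and E12wt replicate 2 again lay next to the knockouts. The log2 fold change was -0.29 ± 0.12 after E47 loss (0.82 times) and 0.42 ± 0.13 after E12 loss (1.34 times), which became 0.60 without E12wt replicate 2 and 0.32 without E12wt replicate 1.

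Nf1 encodes neurofibromin, a GTPase-activating protein that turns Ras off. Its level was 92.4, 80.1 and 96.9 CPM in E47KO, 121, 110 and 108 CPM in E47wt, 110, 124 and 117 CPM in E12KO and 99, 116 and 96.3 CPM in E12wt. The E47 groups did not overlap and the E12 groups did. Its log2 fold change was -0.35 ± 0.11 after E47 loss (0.785 times) and 0.18 ± 0.08 after E12 loss (1.13 times). After E47 loss only Vps13d among the 9 genes changed less (-0.29 ± 0.12). Of the 3 E12wt libraries, 2 lay within 4 CPM of the highest E47KO library.

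Cntn1 encodes contactin 1, a lipid-anchored adhesion molecule of the immunoglobulin family found on neurons and on cells of the oligodendrocyte lineage. It was read at 79.1, 67.8 and 83.9 CPM in E47KO and 167, 105 and 158 CPM in E47wt. The E12 line gave 130, 75.5 and 59.0 CPM in E12KO and 166, 130 and 217 CPM in E12wt, where the highest knockout and the lowest wild type were equal to 3 digits. The log2 fold changes were -0.91 ± 0.19 after E47 loss (0.531 times) and -0.95 ± 0.28 after E12 loss (0.516 times). Their difference was 0.05 ± 0.39, so the counts do not place Cntn1 among genes lower after E47 loss alone. With sex as a term, the E47 value was -0.47 ± 0.18 and the difference 0.49 ± 0.46. Both rest on E47wt replicate 2 as the only wild type set against E47KO. Leaving out 1 library moved the E12 value between -1.34 (without E12KO replicate 1) and -0.73 (without E12KO replicate 3).

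Ccdc136 was higher in both knockouts. It stood at 56.7, 58.8 and 55.0 CPM in E47KO and 38.9, 39.0 and 40.3 CPM in E47wt, and at 45.8, 40.5 and 38.5 CPM in E12KO and 34.6, 30.6 and 24.7 CPM in E12wt. The groups did not overlap in either line. The log2 fold changes were 0.51 ± 0.10 after E47 loss (1.43 times) and 0.48 ± 0.13 after E12 loss (1.39 times), with a difference of 0.04 ± 0.17. The wild types themselves differed, since the E12wt libraries were the lowest of all 12 and the E47wt libraries lay within the E12KO range. The means were 29.9 ± 4.96 CPM in E12wt, 41.6 ± 3.80 in E12KO, 39.4 ± 0.762 in E47wt and 56.8 ± 1.92 in E47KO (SD, n = 3), so that each E47 group stood above its E12 counterpart.

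Set against all genes, the E47KO and E47wt libraries did not overlap in 7.81% of the 14965 genes tested, and in 9 of the 9 genes described here, 7 of them lower (3.07% of all genes) and 2 higher (4.74%). In 5 of the 9 the E47KO libraries lay outside all other 9, as in 2.17% of the 15277 genes of the fit of all libraries: Diaph3, Plxdc2 and Lrp1b below them (0.766%) and Ccdc136 and Lix1 above them (1.41%). The choice of the genes used this contrast, so nothing is read from those counts. The counts of calls that follow describe the same chosen contrast and are no evidence about the 9 genes. By the quasi-likelihood test of edgeR with Benjamini-Hochberg adjustment, 0 of the 9 genes were called at an adjusted p under 0.05, where 0.0134% of all genes were. By DESeq2, 3 were called (Diaph3, Plxdc2 and Ccdc136), against 0.0668% of all genes. In the authors' deposited table for the E47 line, 4 of the 9 genes (Plxdc2, Ccdc136, Diaph3 and Cntn1) had an adjusted p under 0.05, against 0.0796% of the 12556 genes ranked there. The E12KO and E12wt libraries did not overlap in 4 of the 9 genes (13.7% of the 14755 genes tested), of which Cntn1 was lower (6.95%) and Ccdc136, Lrp1b and Vps13d were higher (6.77%). In 2 genes, Lrp1b and Vps13d, the libraries separated in both lines and in opposite directions, as in 0.216% of all genes. Between the wild types, Plxdc2, Ccdc136 and Lrp1b were higher in every E47wt than in every E12wt library, as were 5.14% of all genes, and in Ccdc136 the E12wt libraries were also below all other 9 (0.779%). None of the 9 was called for the E12 knockout effect by edgeR (0.0407% of all genes), by DESeq2 (0.515%) or in the authors' deposited table for the E12 line (0.513%).

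For the difference between the knockout effects, fitted in all 12 libraries, 0 of the 15277 genes were called by edgeR (0% of all genes), where 463 had an unadjusted p under 0.05, and DESeq2 called Xist alone (0.00655%), so none of the 9.

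The difference between the knockout effects, E47 minus E12, was -0.75 ± 0.16 for Diaph3, -0.76 ± 0.17 for Plxdc2, -1.05 ± 0.25 for Lrp1b, -1.10 ± 0.27 for Dst, -0.71 ± 0.19 for Vps13d and -0.52 ± 0.14 for Nf1 (log2, ± SE, 12 libraries). For Lix1 it was 1.08 ± 0.27. For the 7 genes the difference was thus made in unlike ways. In Diaph3 and Plxdc2 nearly all of it came from the E47 line. In Lrp1b and Lix1 most of it did, in Nf1 both lines added to it, and in Dst and Vps13d the larger share lay in E12KO standing above E12wt. A library of E12wt mattered for those last genes: without E12wt replicate 2 the difference for Dst was -1.39 and that for Vps13d -0.88, while over the other libraries left out it reached -0.96 and -0.61. Leaving out any 1 library, the difference kept its sign for these 7 genes, while for Cntn1 it ranged from -0.17 to 0.44 and for Ccdc136 from -0.08 to 0.17. The 7 genes were chosen for this difference, which favours a kept sign, so nothing is read from that.

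**Figure D2:**
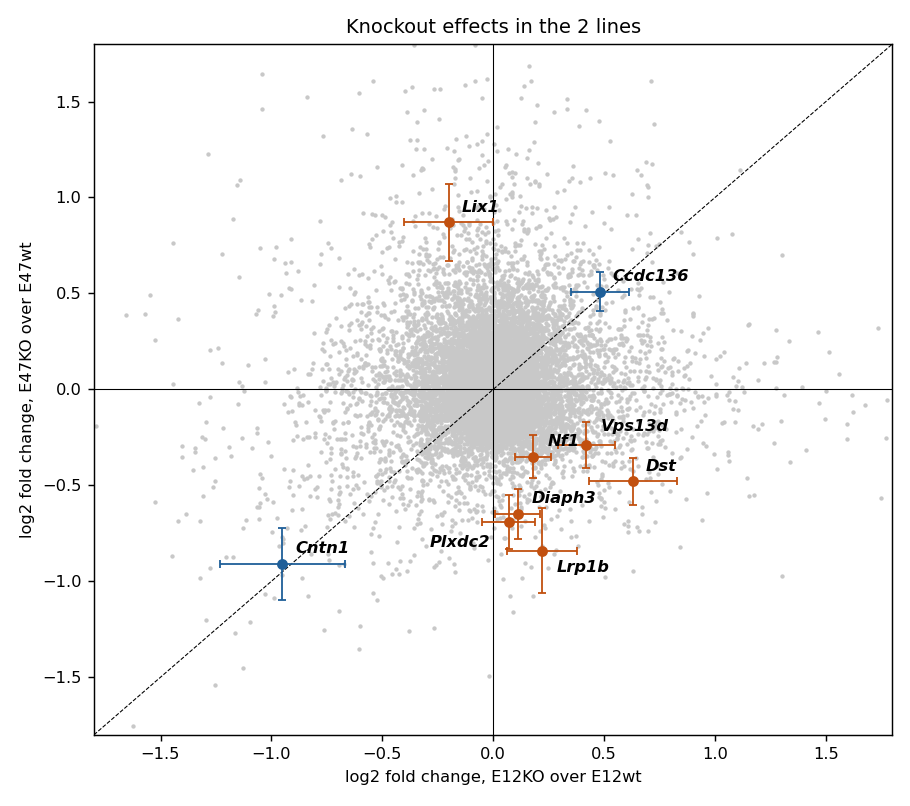
Log2 fold change after E47 loss (vertical axis) against log2 fold change after E12 loss (horizontal axis) for all genes tested in both lines (grey, axes limited to the range shown) and the 9 genes (coloured, bars are ± SE). Cntn1 and Ccdc136 (blue) lie on the diagonal where both effects are equal, and the other 7 (orange) lie off it, which is how they were chosen.

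The comparison of the lines sets the mean of E47wt and E47KO against the mean of E12wt and E12KO. In this balanced layout its sampling error is independent of that of the knockout effects only where the groups have equal spread. The estimate of spread is shared in any case. Pairs of E47KO libraries differed by a chi-square over its degrees of freedom of 44 to 230, and pairs of E47wt libraries by 14.2 to 42.3. The independence is thus approximate, and the comparison holds the same E47KO libraries that helped to choose the genes. This comparison asks whether the genes differed by line on the average of both genotypes. A change in 1 genotype alone can therefore move it. By edgeR, 0 of the 9 genes passed an adjusted p under 0.05, against 0.0196% of the 15277 genes, and 2 of the 9 had an unadjusted p under 0.05, against 5.80%. Ccdc136 was higher in the E47 line by 0.42 ± 0.08 on the log2 scale (adjusted p = 0.153 by edgeR), and Diaph3 was lower by 0.32, with a log2 difference of -0.32 ± 0.08 (adjusted p = 0.263 by edgeR). DESeq2 called both, with an adjusted p of 0.00214 for Ccdc136 and of 0.0346 for Diaph3, where it called 0.877% of all genes. Over all 19 settings run for each, the adjusted p by edgeR or DESeq2 ranged from 0.00214 to 1 for Ccdc136 and from 0.0346 to 1 for Diaph3.

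In neither gene did the 6 libraries of the lines separate. The E47 line had Ccdc136 at 38.9 to 58.8 CPM and the E12 line at 24.7 to 45.8 CPM. Mean Diaph3 was 50.5 CPM in E47wt and 48.7 CPM in E12wt, but 32.5 CPM in E47KO and 52.4 CPM in E12KO. Its line difference thus lay mainly in the knockouts and is not a difference held by both genotypes. For the other 7 genes the difference between the lines lay between -0.23 ± 0.20 (Cntn1) and 0.27 ± 0.13 (Lix1), with adjusted p of 0.881 to 0.938 by edgeR. A missed threshold does not show that the lines were alike. Line and any separate handling of the lines cannot be told apart in this design. Sex overlapped with line in part. With sex as a term the difference was 0.43 ± 0.15 for Ccdc136 and -0.36 ± 0.15 for Diaph3. That term was estimated only within E47wt, between replicate 2 and the other libraries of the group.

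Transcript length moved with the pattern in some of the genes. Lrp1b, Dst, Vps13d and Nf1 have longest annotated transcripts of 16294, 23279, 15849 and 11917 bases (GRCm38), longer than those of 99.8%, 99.9%, 99.7% and 98.8% of the genes tested. The median was 3270 bases. Plxdc2, Cntn1 and Diaph3 have 6947, 5671 and 4582 bases, and Ccdc136 and Lix1 3826 and 3116 bases. Spans in the genome were long as well, reaching 2058379 bases for Lrp1b, the top percentile, against a median of 22384 bases. Per kilobase of longest transcript, mean levels were 21.1 CPM for Cntn1, 11.0 for Ccdc136, 10 for Diaph3 and 8.89 for Nf1. They were 4.62 for Dst, 3.13 for Vps13d, 2.03 for Plxdc2, 0.842 for Lix1 and 0.18 for Lrp1b. The giant genes with high counts were thus moderate in level once their length was counted.

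Across all other genes, the median E47 fold change was lower in each longer class of transcripts. Among 3528 genes with a longest transcript under 2 kb, the median log2 fold change was 0.05 and 40.3% were below 0. Among 359 genes of 10 kb and over, it was -0.15 and 82.5% were below 0. In the E12 line the longest class went the other way, with a median of 0.11 and 28.1% below 0. Over all genes tested the medians were -0.01 in the E47 line and 0.00 in the E12 line. The 4 giant genes thus lay on the side of their length class in both lines, farther from 0 than its median.

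**Figure D3:**
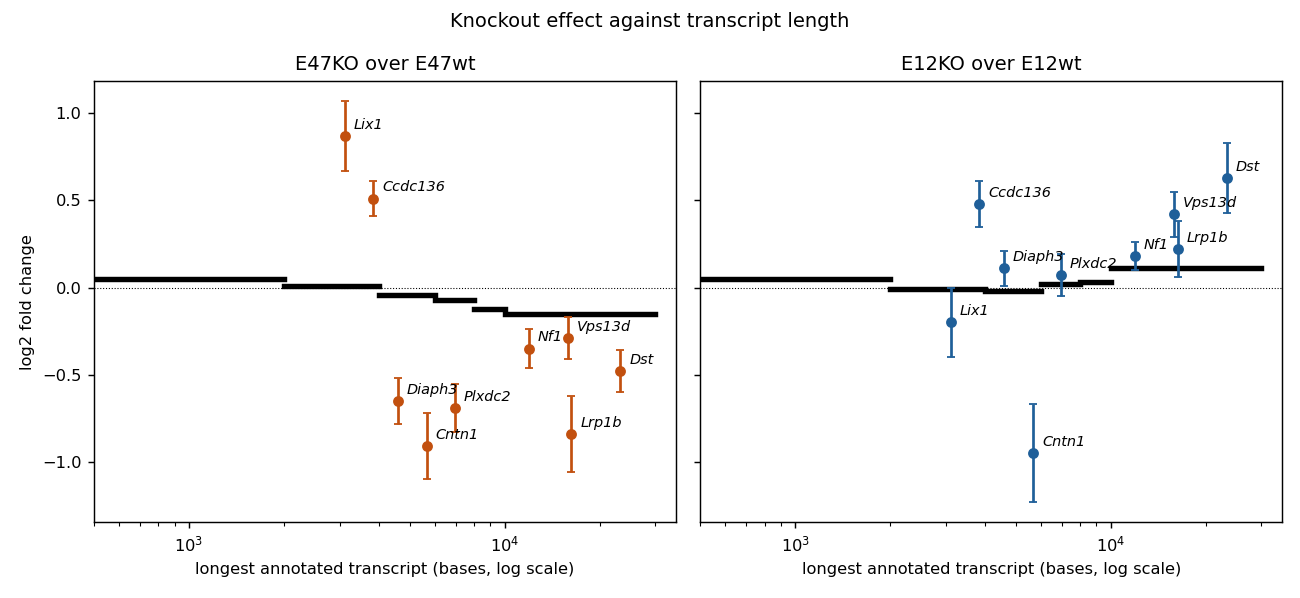
Log2 fold change against the longest annotated transcript (bases, log axis) in the E47 line and in the E12 line, with medians of other genes by length class as black steps (the first and last classes are open-ended) and the 9 genes as points ± SE. The class of 10 kb and over lies at -0.15 in the E47 line and at 0.11 in the E12 line, and Dst, Nf1, Vps13d and Lrp1b lie beyond it on the same side in both.

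A list of 42 other genes with very long transcripts, such as Apc, a Wnt pathway scaffold, and Ank2, an adaptor between membrane and spectrin, was examined beside them. Of 41 tested, 38 were below 0 after E47 loss (median log2 fold change -0.25, 0 called) and 40 were above 0 after E12 loss (median 0.34, 0 called), by edgeR. Apc was at -0.23 ± 0.19 after E47 loss and 0.22 ± 0.11 after E12 loss, and Ank2 at -0.21 ± 0.13 and 0.38 ± 0.16. Summed over the list, E12wt held 4370, 5880 and 4290 CPM and E12KO 5510, 6550 and 6160 CPM, and E47wt held 5790, 5670 and 5520 CPM and E47KO 4590, 4090 and 5760 CPM. E12wt replicate 2 stood with the knockouts in this sum as it did for Dst, and E47KO replicate 3 stood with the wild types.

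With the trend of counts on transcript length removed from each library, an alternative chosen after the data were seen, the effects of the giant genes shrank in both lines. The E47 fold change became -0.20 ± 0.11 for Dst, -0.18 ± 0.11 for Nf1, -0.07 ± 0.13 for Vps13d and -0.61 ± 0.23 for Lrp1b. The gap between the knockout effects, E47 minus E12, became -0.65 ± 0.18, -0.27 ± 0.11, -0.36 ± 0.15 and -0.68 ± 0.28 for the same genes in that order. For Diaph3 it was -0.75 ± 0.15, for Plxdc2 -0.67 ± 0.18 and for Lix1 1.04 ± 0.27, each within 0.1 of its value before. The E47 fold changes of Cntn1 (-0.86 ± 0.18) and Ccdc136 (0.52 ± 0.10) also stayed within 0.1.

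**Figure D4:**
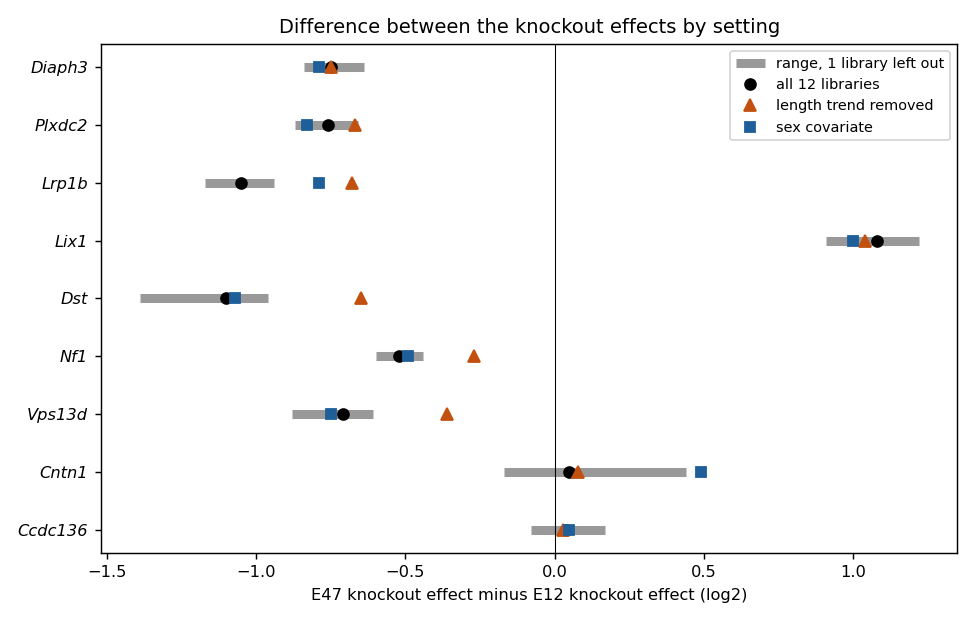
Difference between the knockout effects, E47 minus E12, in log2 units on the horizontal axis, for each gene. Circles are the reported values from all 12 libraries, grey bars the range with each library left out in turn, squares the values with sex as a term and triangles those with the length trend removed. Diaph3, Plxdc2 and Lix1 stay near the reported value, Dst, Nf1, Vps13d and Lrp1b move towards 0 when the length trend is removed, and Ccdc136 stays near 0. Cntn1 is at 0.05 with all libraries and at 0.49 with sex as a term. The sex term rests on E47wt replicate 2, the only male wild-type library.

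The genes whose pattern over the 12 libraries was most like each of the 9 were found by Pearson's r of log2 CPM among 12331 genes, as a description. Dst was closest to Macf1 (r = 0.99), the other large spectraplakin, and to Fat3 (0.98), a giant cadherin. Vps13d was closest to Arhgef12 (0.96), a guanine nucleotide exchange factor, and to Dst (0.96). Nf1 was closest to Unc79 (0.95), a subunit of a sodium leak channel, and Usp34 (0.94), a deubiquitinase. All these neighbours had longest transcripts of 8874 bases or more.

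The neighbours of the remaining genes had shorter transcripts, of 1315 to 5655 bases. Diaph3 was closest to Dennd2c (r = 0.93), a Rab exchange factor, which had log2 fold changes of -0.62 in the E47 line and 0.00 in the E12 line, and to Exoc1 (0.90), an exocyst subunit. Plxdc2 was closest to Fgf5 (0.85), a fibroblast growth factor, and to Diaph3 (0.85). Lix1 was closest to Nrgn (0.87), a calmodulin-binding protein of neurons, and Tkfc (0.85), a kinase of triose metabolism. Lrp1b was closest to Grm3 (0.86), a glutamate receptor, and Tuft1 (0.85). Cntn1 was closest to B3gat2 (0.98), a glucuronyltransferase that makes the HNK-1 sugar epitope, and Tgfa (0.97), an EGF receptor ligand, which were lower in both lines as Cntn1 was. Ccdc136 was closest to Cdk2ap1 (0.94), a CDK2-binding protein, and Lynx1 (0.92), a modulator of nicotinic receptors, which had log2 fold changes of 0.42 and 0.76 in the E47 and E12 lines. Among the 9 genes themselves r ranged from r = 0.96 for Dst with Vps13d to r = -0.87 for Diaph3 with Lix1.

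Relatives of the 9 genes were looked up in lists. Of 14 other formins tested, 7 were below 0 after E47 loss (median log2 fold change 0.00) and 5 after E12 loss (0.02), and 0 were called by edgeR in either line. Fmnl2, the most abundant at 270 CPM, was at -0.20 ± 0.22 and 0.25 ± 0.14, and Daam1, a formin of planar polarity signalling, at -0.10 ± 0.10 and 0.04 ± 0.07. The formins nearest to Diaph3 by name were Diaph1, at -0.05 ± 0.16 and 0.06 ± 0.07, and Diaph2, at -0.18 ± 0.19 and 0.26 ± 0.13. Of the other lipoprotein receptor family members, 7 of 14 were below 0 after E47 loss (median 0.02) and 5 of 14 after E12 loss (0.01). Lrp1, a large endocytic receptor, was at -0.21 ± 0.21 and 0.11 ± 0.11. The medians of both families lay close to those of all genes (-0.01 and 0.00).

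Of the other contactins and their partners, 10 of 15 were below 0 after E47 loss (median -0.10) and 6 of 14 after E12 loss (0.04). Ptprz1, a receptor phosphatase of neural stem cells that binds contactin 1, was at -0.27 ± 0.13 and 0.07 ± 0.10, and Tnc, a matrix glycoprotein, at -0.22 ± 0.30 and 0.57 ± 0.16. Of the other Ras GTPase-activating proteins and Spreds, 7 of 11 were below 0 after E47 loss (median -0.17) and 5 of 11 after E12 loss (0.01). Rasa3 was at -0.17 ± 0.10 and 0.00 ± 0.06, and Spred1, which brings neurofibromin to the membrane, at -0.28 ± 0.24 and -0.04 ± 0.07. In none of these lists, nor in those of the next sentences, was a gene called by edgeR.

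The relatives of Dst and Vps13d are themselves long. Of the other plakins, 2 of 3 were below 0 after E47 loss (median -0.23) and 1 of 3 after E12 loss (0.26). Macf1 was at -0.33 ± 0.13 and 0.41 ± 0.15, and Plec, at 1.24 CPM, at 0.62 ± 0.34 and -0.02 ± 0.27. Of the other VPS13 and ATG2 lipid transfer proteins, 4 of 5 were below 0 after E47 loss (median -0.24) and 1 of 5 after E12 loss (0.25). Atg2b was at -0.08 ± 0.11 and 0.04 ± 0.09, and Vps13c at -0.28 ± 0.16 and 0.45 ± 0.22. Macf1, Vps13a, Vps13b and Vps13c stand in the list of long transcripts too. Plxdc1, the paralogue of Plxdc2, had 21 reads over the 12 libraries and was not tested.

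Markers of other cell types were summed per library beside these results. Neuron markers summed to 1160 to 1460 CPM in E47KO and 1430 to 1490 CPM in E47wt, and to 1340 to 1510 CPM in E12KO and 1390 to 1460 CPM in E12wt. Of 12 tested, 11 were below 0 after E47 loss (median log2 fold change -0.26) and 11 after E12 loss (-0.38). Map2, at 1110 CPM, made most of that sum, and Neurod2, of differentiated neurons, had 8 reads in all. Oligodendrocyte lineage markers summed to 1160 to 1540 CPM in E47KO, 1050 to 1530 CPM in E47wt, 968 to 1190 CPM in E12KO and 1100 to 1610 CPM in E12wt, with 5 of 10 and 10 of 10 below 0 (medians 0.02 and -0.49). Olig1 was at 667 CPM, while Mag and Mog, of mature oligodendrocytes, had 7 and 2 reads in all.

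Astrocyte markers summed to 1200 to 1960 CPM in E47KO, 1030 to 1490 CPM in E47wt, 1340 to 1580 CPM in E12KO and 1030 to 1500 CPM in E12wt, with 2 of 10 and 4 of 10 below 0 (medians 0.45 and 0.29). Gfap had 325 reads in all. Mesenchymal and meningeal markers summed to 11.9 to 32.6 CPM per library. Of those, 5 of 6 were below 0 after E47 loss (median -0.42) and 4 of 7 after E12 loss (-1.83), where Col1a1, Bgn and Col1a2, genes of the fibroblast matrix, were called lower by edgeR. Microglia, endothelial and erythroid markers summed to at most 10.1, 7.29 and 0.55 CPM, and Aif1, Cldn5 and Hbb-bt, which mark those cells, had 2, 3 and 3 reads over the 12 libraries. Stem cell markers summed to 9820 to 11600 CPM, with 5 of 12 below 0 in both lines (medians 0.05 and 0.04). The part of neurons and glia in the levels of the 9 genes was not tested.

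A few other genes overlap the 9 on the genome. Exons of Dst overlap Gm26788 and A930005N03Rik on the other strand by 1037 and 456 bases. The counts used were of 1 strand, and reads of the other strand made up 2.51% to 6.53% of the reads on Dst. Ccdc136 and Lrp1b each share under 100 bases with a small RNA gene on their own strand.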

How the data were processed

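Per the labels' protocols, mRNA libraries kept strand. STAR 2.5, genome build mm9, DESeq2 and DESeq are named per the submitters' processing notes. No gene model release was named. Each library has a file of read counts by gene and strand as deposited. For each line the authors also deposited a table with normalized signal, log2 fold changes, a score (the ratio of fold change to error) and p-values. Opposite-strand counts, 97.1% to 97.2% of strand-assigned gene reads, were used throughout. Rows that name no gene were left out: 0.859% to 0.922% of reads were ambiguous, 4.63% to 5.35% mapped to several places and 5.62% to 7.64% to no gene.

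Tests ran in R 4.3.3 with edgeR 4.0.16 (quasi-likelihood F test, filterByExpr by group, TMM). Two-sided p-values were Benjamini-Hochberg adjusted over all genes tested, with a threshold of 0.05. Each line was fitted with its 6 libraries. The difference between the knockout effects and the difference between the lines were fitted in all 12. DESeq2 1.42.0, other scaling, filters and strands, a replicate block, sex and left-out libraries were the alternatives. The fits were also run on simulated data, and the outcome is neither given nor used here. Fitted fold changes used a prior count of 0.125, and their standard error is the fold change over the root of F. Log2 CPM used a prior count of 2. Libraries of a group differed by more than sampling noise (chi-square over its degrees of freedom of 12.9 or more). The floor of 3 reads covers counting error only.

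The 9 genes, the lists and the tests were chosen with earlier results of these data known. From each list the text names the 2 genes with the highest mean CPM and any called gene, and for each of the 9 the 2 genes with the highest r among those of at least 1 CPM. A gene that this rule names is not reported here. Sox2, Diaph1, Diaph2 and the marker genes with few reads were named outside that rule after their values were seen. Names, lengths and overlaps came from GENCODE on GRCm38, which named 32897 of 37620 identifiers, and promoters from RefSeq. No coordinate was mixed with mm9.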

Additional observations from a re-analysis of the deposited data

Results flagged for a closer look

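Lrp1b and Vps13d were the 2 genes of the 9 in which every E12KO library lay above, and every E47KO library below, all wild types of its own line. The groups of both lines separated in opposite directions, counting either orientation, in 0.216% of all genes tested. The difference between the knockout effects was -1.05 for Lrp1b and -0.71 for Vps13d on the log2 scale. Neither edgeR nor DESeq2 called it for either gene. Since the genes were chosen for that difference, it is given as a description. The margin between the nearest libraries was under 1 CPM for each gene in each line, at unlike levels. In the E47 line these libraries had 2.23 against 3.00 CPM for Lrp1b and 47.3 against 48.0 CPM for Vps13d. In the E12 line they had 3.00 against 2.91 CPM for Lrp1b and 53.4 against 53.2 CPM for Vps13d.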

How the results depend on the processing

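The E47 fold changes of the 9 genes kept their sign in 126 of 126 values from other settings, the E12 fold changes in 115 of 117, the differences between the knockout effects in 173 of 180 and the differences between the lines in 165 of 171. The choice of the genes used the knockout effects and their difference, and the E47 groups overlapped in none of the 9. Kept signs of those values therefore support nothing. The exceptions for the knockout effects were small values (Diaph3 and Plxdc2 in the E12 line, Cntn1 and Ccdc136 in the difference). Between the lines the sign changed with sex as a term for Cntn1 (0.17) and Lrp1b (0.07), with the length trend removed for Dst (0.01) and Vps13d (0.02), and without E12wt replicate 2 for the same genes (0.08 and 0.05). With each library left out in turn it ranged from -0.14 to 0.08 for Dst and from -0.09 to 0.05 for Vps13d. The cause was not tested.

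Counts over all genes by edgeR moved more. Genes called in the E47 line numbered 2 (1 higher, 1 lower), 10 by DESeq2 and 1 with sex as a term. Leaving out 1 library gave 0 (without E47wt replicate 3, with 282 at an unadjusted p under 0.05) to 7 (without E47wt replicate 2), and 1 without E47wt replicate 1 or E47KO replicate 1. The E12 line had 6, with 76 by DESeq2, 20 with no filter on low counts and 2 in a fit of all 12 libraries. Leaving out 1 library gave 2 (without E12KO replicate 2 or 3) to 10 (without E12wt replicate 3). The difference between the knockout effects had 0 (463 at an unadjusted p under 0.05), 1 by DESeq2 and 0 to 1 with a library left out, the 1 without E47wt replicate 2. Between the lines it was 3, with 134 by DESeq2, 8 with no filter and 0 with sex as a term (481 at an unadjusted p under 0.05). Leaving out 1 library gave 1 to 61, with 61 without E12wt replicate 3, 7 without E12wt replicate 1 or E47wt replicate 2, 6 without E47KO replicate 2, 5 without E47wt replicate 3 and 1 without E12wt replicate 2, E47wt replicate 1, E47KO replicate 1 or any E12KO library.

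No label ties a replicate number to a litter or day. Deviations of same-numbered libraries correlated at 0.089, 0.058 and -0.008 in the E12 line and at 0.100, 0.229 and 0.455 in the E47 line, and not every library correlated best with its own number. With the replicate block, 2 genes were called in the E47 line, 4 in the E12 line, 0 for the difference between the knockout effects (527 at an unadjusted p under 0.05) and 2 for the difference between the lines. Lrp1b and Lix1, with 72 to 194 reads per library, were the genes most limited by depth.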
